A study of Mus musculus with 2 samples.

Results

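Mir126a and Mir126b are a pair of mouse miRNA genes that lie on opposite strands of the same stretch of chromosome 2, inside Egfl7. Their rows were taken by gene name, with no limit on their values, and are 2 of 2202 annotated miRNA genes. Small RNA of the calf muscle gastrocnemius was sequenced from 2 female mice aged 10 days, of the strain B6CASTF1/J, a first-generation cross of C57BL/6 and CAST. Per the labels, the starting material was total RNA and fragments below 30 bases were selected. The samples are biological replicates 1 and 2 of a single group, with no treatment and no second condition. Their labels name a different female and a different biosample for each, and on that ground alone they are called animals here. Both carry the same donor entry. A difference between the libraries may be technical.

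Egfl7 encodes a secreted protein of endothelial cells, the cells that line blood vessels. The hairpin of Mir126a is carried in its transcript, and the mature miR-126a-3p is known from mouse and zebrafish for restraining Spred1 and Pik3r2, inhibitors of the signalling that follows vascular endothelial growth factor. miR-126 is also known from blood stem cells, megakaryocytes and platelets. Mir126b is annotated on the other strand, so it would have to come from a transcript that runs against Egfl7. A miRNA acts through its seed, bases 2 to 8 of the mature strand, and the seeds of these products decide whether they could read the same targets.

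The sequences of the locus are shown because the results turn on which strand a read came from. RefSeq sequences (build GRCm38.p6) were found for both hairpins and for 3 mature products, while miR-126a-5p is named only. In the mature sequences the capitals mark the seed.
miR-126a-3p: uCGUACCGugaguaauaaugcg
miR-126b-5p: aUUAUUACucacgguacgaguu
miR-126b-3p: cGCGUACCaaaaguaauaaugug
The 3 seeds differ as whole sequences, and 0 other mouse miRNAs in the RefSeq set share any of them. Those of miR-126a-3p and miR-126b-3p still have the run CGUACC in common, at shifted positions. Whether these products share targets was not tested. In the hairpins below the capitals mark these same mature products.
Mir126a hairpin: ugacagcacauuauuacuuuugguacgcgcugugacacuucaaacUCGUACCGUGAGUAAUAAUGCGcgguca
Mir126b hairpin: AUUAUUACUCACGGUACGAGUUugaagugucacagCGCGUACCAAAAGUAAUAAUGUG

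The hairpins are exact reverse complements of each other over all 58 bases of Mir126b. Of miR-126b-5p, 19 bases, auuauuacucacgguacga, are the exact reverse complement of miR-126a-3p. On the same strand the unbroken matches are shorter. They understate the likeness of miR-126b-3p and miR-126a-3p, which also share the run CGUACC of their seeds. The longest run common to miR-126b-3p and miR-126a-3p is 10 bases, aguaauaaug, and that of miR-126b-5p and the Mir126a hairpin is 9 bases, auuauuacu. A read of full mature length therefore belongs to one strand only. Neither hairpin shared a window of 18 or 22 bases, on either strand, with any of 1003 other RefSeq mouse hairpins. The strands were alike in predicted folding. The predicted minimum free energy was -19.3 kcal/mol for Mir126b and -19.4 kcal/mol for the same 58 bases read on the strand of Mir126a, and -31.2 kcal/mol for the whole Mir126a hairpin of 73 bases.

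Mir126a (ENSMUSG00000065540.1) spans chr2:26591357-26591429 on the plus strand of mm10, and Mir126b (ENSMUSG00000105799.1) spans chr2:26591363-26591420 on the minus strand. Mir126b lies wholly within Mir126a, which extends 6 bases beyond it on one side and 9 on the other. In Egfl7 (ENSMUSG00000026921.18, chr2:26580014-26593120, plus strand), Mir126a lies in an intron of 8 of 19 annotated transcripts and in an exon of 1, the retained intron transcript Egfl7-206. The other 10 do not span it. In Egfl7-212, which has 10 exons, it is in intron 7 of 9, 293 bases after the exon before it and 234 bases ahead of the next. Annotated transcripts Egfl7-211, Egfl7-208 and Egfl7-214 begin 5, 6 and 17 bases after the last base of Mir126a. The plus-strand gene Gm20532 also spans the locus, with 0 exons over it. No annotated gene other than Mir126b overlaps Mir126a on the minus strand, so Mir126b has no host on its own strand. The nearest other miRNA gene, Mir6996, is 121 kb away.

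**Figure D1:**
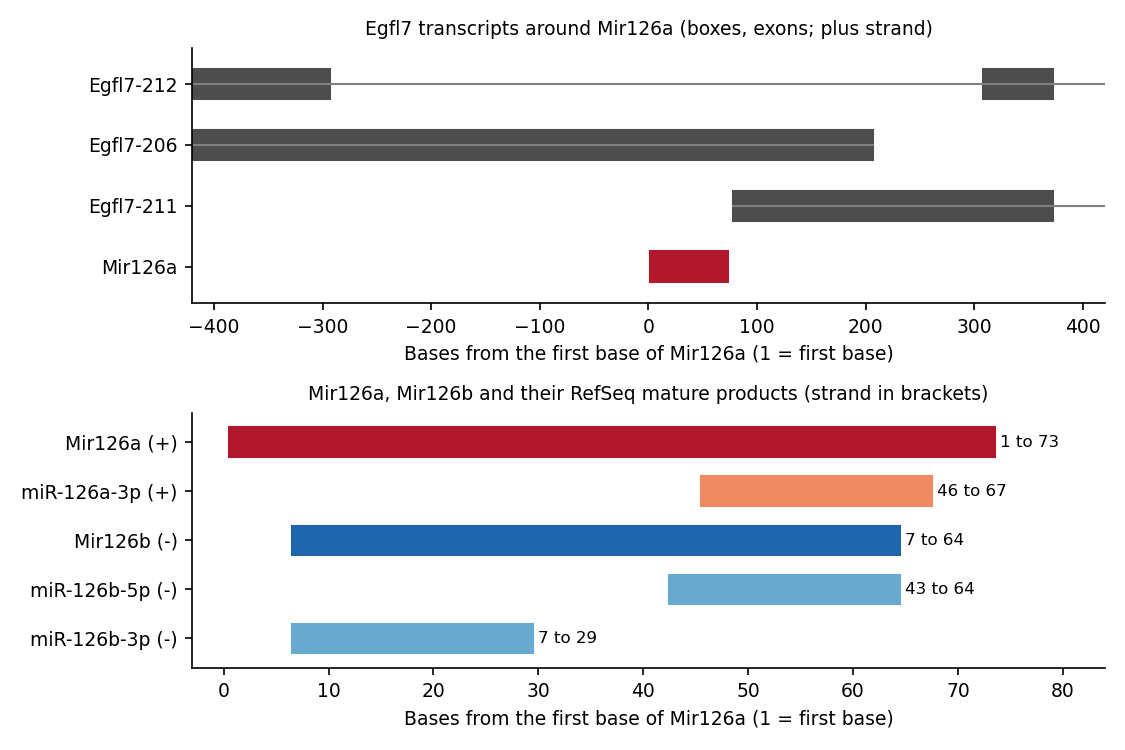
Map of the Mir126a locus in bases from the first base of Mir126a; the upper panel shows 3 Egfl7 transcripts (boxes are exons, lines introns) and the lower panel both miRNA genes with their RefSeq mature products, with first and last positions written beside each bar. Mir126b takes up bases 7 to 64 of Mir126a, and 19 of the 22 bases of miR-126a-3p fall inside it.

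The deposited counts were made with and without regard to strand. A sense count takes reads on the strand of the gene, and an antisense count takes reads on the other strand. An unstranded count takes both and sets aside as ambiguous any read that lies over 2 genes. No label or header used here names this rule, which was inferred from the columns. Levels below are sense reads per 1000000 sense reads on miRNA genes (CPM), with totals of 3510897 reads in replicate 1 and 3949733 in replicate 2. Reads were not divided by gene length, since the RNA was selected at the size of a mature miRNA. A count per gene sums both arms of a hairpin, so miR-126a-5p and miR-126a-3p cannot be told apart.

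Among reads placed at a single site, Mir126a was one of the most abundant miRNA genes of the muscle, and Mir126b was not detected. Mir126a had 147585 sense reads in replicate 1 and 182929 in replicate 2, or 42036 and 46314 CPM. These are 4.20% (Wilson 95% interval 4.18% to 4.22%) and 4.63% (4.61% to 4.65%) of the sense reads. Its mean was 44175 ± 3025 CPM (SD, n = 2), rank 6 of the 2202 genes in each library. The rank holds for counted reads only, since 42.6% of the reads of replicate 1 and 46.4% of replicate 2 aligned to several places and were counted on no gene. In bulk tissue, the number of endothelial cells and the amount of the miRNA in each cell cannot be told apart.

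Mir126b had 0 sense reads in replicate 1 and 0 in replicate 2. A count of 0 allows up to 3 reads, which is 0.854 CPM in replicate 1 and 0.760 CPM in replicate 2. Mir126a was therefore at least 49195-fold higher than Mir126b in replicate 1 and at least 60976-fold higher in replicate 2. The bound, like the intervals, covers counting error only, as PCR copies of a molecule cannot be recognised in these counts.

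The antisense count of Mir126a takes in every sense read of Mir126b, so it is not a separate observation. Mir126a had 0 antisense reads in both libraries, which allows an opposite-strand share of up to 0.00203% in replicate 1 and 0.00164% in replicate 2. Over the 2138 genes with no miRNA gene on the other strand, the antisense share was 0.00111% (Wilson 95% interval 0.000792% to 0.00156%) and 0.00135% (0.00100% to 0.00181%). At those shares the reads of Mir126a would bring 1.64 antisense reads in replicate 1 and 2.47 in replicate 2. A level of Mir126b under this strand background was not detectable at this depth.

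Without strand, nearly the whole signal of Mir126a disappeared. It had 147585 sense reads, against 3 unstranded reads, in replicate 1 and 182929 sense reads, against 6 unstranded reads, in replicate 2. Of its reads 99.998% (Wilson 95% interval 99.994% to 99.9993%) were lost in replicate 1 and 99.997% (99.993% to 99.9985%) in replicate 2. The sense count was 49195 times the unstranded count in replicate 1 (95% interval 16731 to 144652) and 30488 times in replicate 2 (13973 to 66523). Per 1000000 unstranded reads on miRNA genes, Mir126a stood at 1.01 and 1.84 CPM, under the limit of 2 CPM in both animals used here to call a gene detected. Its rank was 6 with strand in both libraries, against 396 in replicate 1 and 343 in replicate 2 without strand. Mir126b had 0 unstranded reads in both libraries.

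The 3 columns account for these reads exactly. Mir126b had 147582 antisense reads in replicate 1 and 182923 in replicate 2, all of them on the strand of Mir126a. They fall short of the sense count of Mir126a by 3 and 6 reads, and those are its unstranded counts. Every lost read thus lay over both genes, and the reads that were kept touched Mir126a without touching Mir126b. Outside Mir126b the hairpin has only the 6 and 9 bases at its ends. Read as a level of Mir126b, the antisense column would give this gene the abundance of Mir126a.

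**Figure D2:**
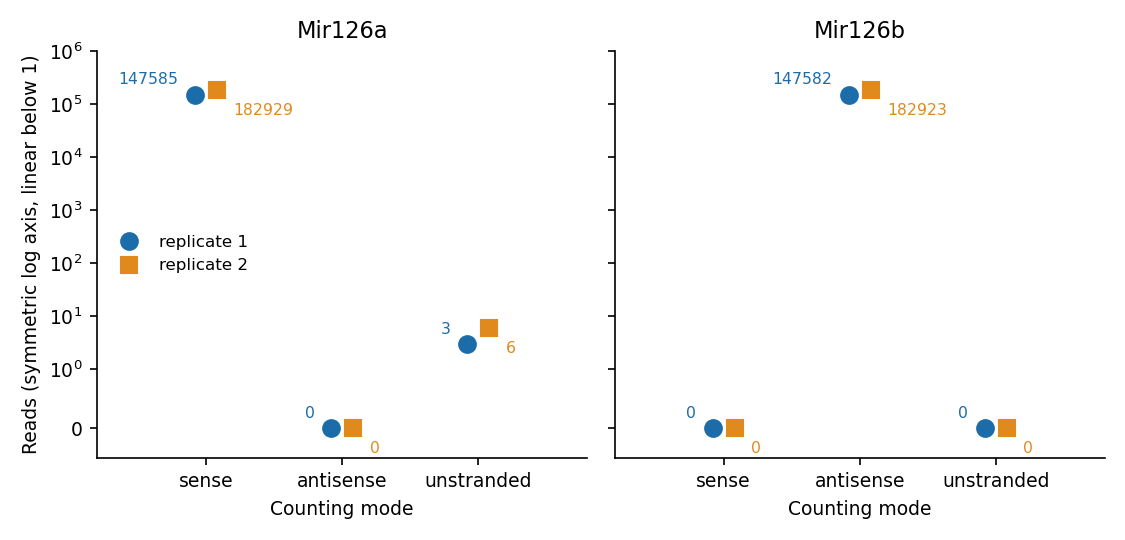
Reads on Mir126a (left) and Mir126b (right) in each library by counting mode, on a symmetric log axis that is linear below 1, with the count written at each point. The sense reads of Mir126a, 147585 and 182929, reappear as 147582 and 182923 antisense reads of Mir126b, and the unstranded counts are 3 and 6 for Mir126a and 0 for Mir126b.

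The loss of Mir126a was a loss shared by every detected gene with a miRNA gene on the other strand. Among 332 detected genes, 28 (8.43%) had a sense count of at least 2 times the unstranded count in both libraries, Mir126a among them. All 28 of the 28 detected genes with an opposite miRNA gene did so (100%), and 0 of the 304 without one (0%). Of those 304 genes, 291 had the same count in both modes in both libraries, and the largest difference was 5 reads. Mir126b was not tested, as it had 0 reads.

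**Figure D3:**
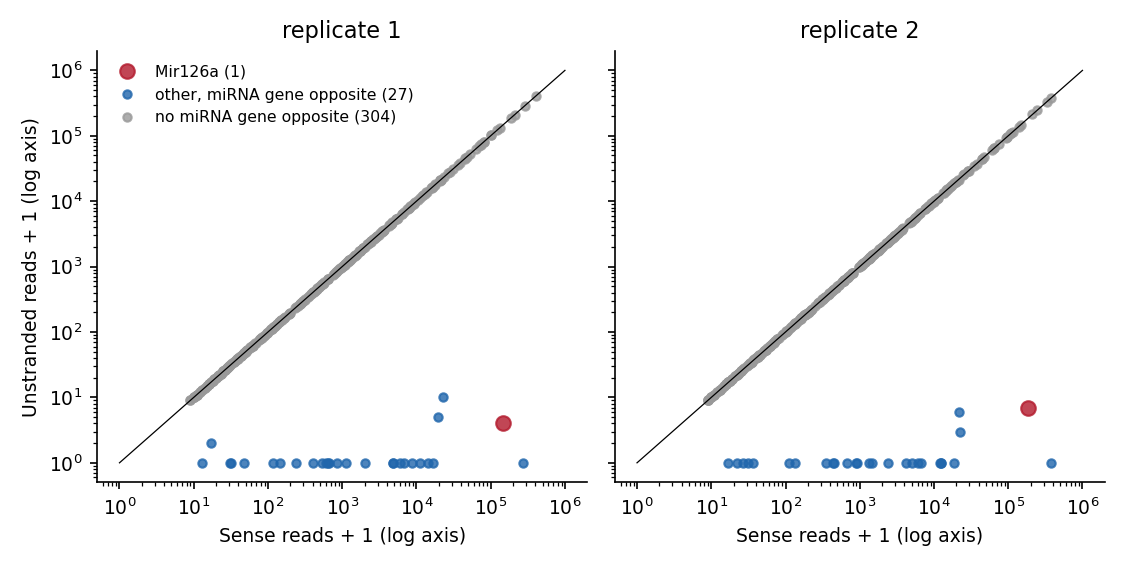
Unstranded against sense reads, each plus 1 on log axes, for detected genes in replicate 1 (left) and replicate 2 (right); the line marks equal counts. Genes with no miRNA gene opposite lie on the line, whereas Mir126a (red) and the other genes with an opposite miRNA gene (blue) lie at 9 unstranded reads or fewer.

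Mir126a made up a large part of the reads that unstranded counting set aside. Ambiguous reads numbered 542673 in replicate 1 and 686780 in replicate 2, and the Mir126 locus held 27.2% (Wilson 95% interval 27.1% to 27.3%) and 26.6% (26.5% to 26.7%) of them. The other 31 opposite-strand pairs held 72.8% and 73.4%. Most of that was Mir378a, a miRNA of the metabolic coactivator gene Ppargc1b, whose pair held 50.1% and 54.3%. The Mir126 and Mir378a pairs together held 77.3% of the ambiguous reads in replicate 1 and 80.9% in replicate 2.

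**Figure D4:**
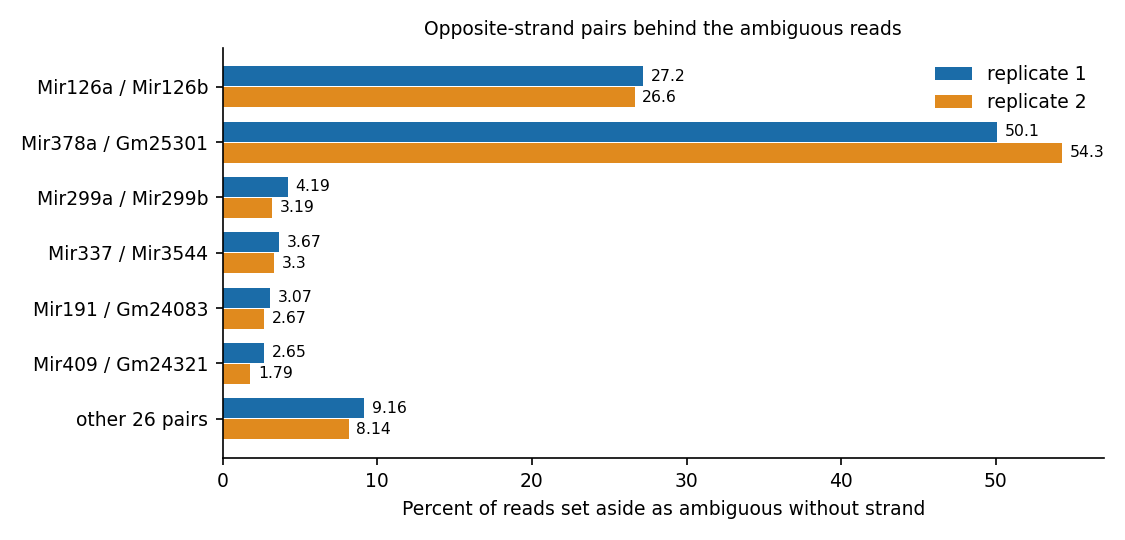
Percent of the ambiguous unstranded reads of each library that came from each opposite-strand pair (bars; the leading 6 pairs and the other 26 summed). Mir126a with Mir126b stands at 27.2% and 26.6%, Mir378a with Gm25301 at 50.1% and 54.3%, and no other single pair passes 4.19%.

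The Mir126 locus combined a very high count on one strand with 0 on the other, a pattern that other pairs shared or came close to. In 23 other pairs the higher gene was detected, and it lost between 93.75% and 100% of its reads in replicate 1 and between 99.977% and 100% in replicate 2. Its partner had 0 sense reads in both libraries in 14 of these pairs, reads in both libraries in 7 and reads in 1 library in 2. The 5 highest of the other genes were Mir378a, Mir299a, Mir337, Mir191 and Mir409, and none of them kept more than 9 unstranded reads in a library. Mir378a had 271672 and 372695 sense reads, against 0 and 0 unstranded reads, and its partner Gm25301 had 0 and 4 sense reads. Mir191 (16638 and 18342 sense reads) and Mir409 (14394 and 12273) had partners with 0 sense reads in both libraries. Mir337, a miRNA of the imprinted Dlk1-Dio3 region, had 19761 and 22559 sense reads, against 4 and 2 unstranded reads. In this pair the other strand also gave reads, 145 and 112 on Mir3544, or 0.734% and 0.496% of the count of Mir337. For Mir126b the share was under the limit of 0.00203% and 0.00164% given above.

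With these reads set aside, the CPM of genes that kept their reads was higher without strand. The sense total on miRNA genes was 1.18 times the unstranded total in replicate 1 and 1.21 times in replicate 2, so a gene with the same reads in both modes looked that much higher without strand. Mir23b, which is on the angiogenesis list below, had rank 8 by mean sense CPM, against 6 for Mir126a. It had 122927 and 137544 reads in either mode. That is 35013 and 34824 CPM with strand, against 41414 and 42152 CPM without. With strand Mir126a stood at 1.20 and 1.33 times Mir23b in replicates 1 and 2.

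With strand, the genes closest in level to Mir126a were Mir411 (61091 ± 1491 CPM) and Mirlet7i (53597 ± 52.4 CPM) above it, and Mirlet7g (37634 ± 385 CPM) and Mir23b (34918 ± 134 CPM) below it (SD, n = 2 each). The values of Mir126a in the 2 libraries overlapped with those of none of these 4 genes. Mir126a was 0.784 and 0.865 times Mirlet7i and 1.11 and 1.24 times Mirlet7g in replicates 1 and 2.

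Among 30 miRNA genes listed for roles in angiogenesis or endothelial function, none exceeded Mir126a in reads placed at a single site. Listed genes with numbered copies, such as Mir24-1 and Mir24-2 or Mir181a-1 and Mir181a-2, may be undercounted. Reads that aligned to several places were counted on no gene, so the list median may be too low as well. Of the list 26 of 30 were detected, against 332 of all 2202 annotated miRNA genes. The list median was 366 CPM over all 30, against 130 CPM over the 332 detected genes and 0 CPM over all annotated genes. Most of these genes are also expressed outside endothelium. The list held 9.89% and 9.73% of sense reads. Against 79 of all 2202 annotated genes, 10 of its members reached 1000 CPM. They were led by Mir23b and Mir23a (28409 ± 804 CPM), of which Mir126a was 1.27 and 1.55 times the level. Next came Mir100 (6296 ± 297 CPM), known for restraining mTOR in endothelial cells, and Mir130a (6138 ± 242 CPM), known for repressing the antiangiogenic homeobox genes GAX and HOXA5 in human cells. Mir10b, Mir99b, Mir10a, Mir27b, Mir125a and Mir17 lay between 1928 and 4757 CPM. Mir221 (80.9 ± 4.45 CPM) and Mir222 (16.4 ± 0.604 CPM), which lower the receptor KIT in endothelium, were far below Mir126a. On this list only Mir24-1 and Mir24-2 have an opposite miRNA gene, and both had 0 unstranded reads in both libraries.

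**Figure D5:**
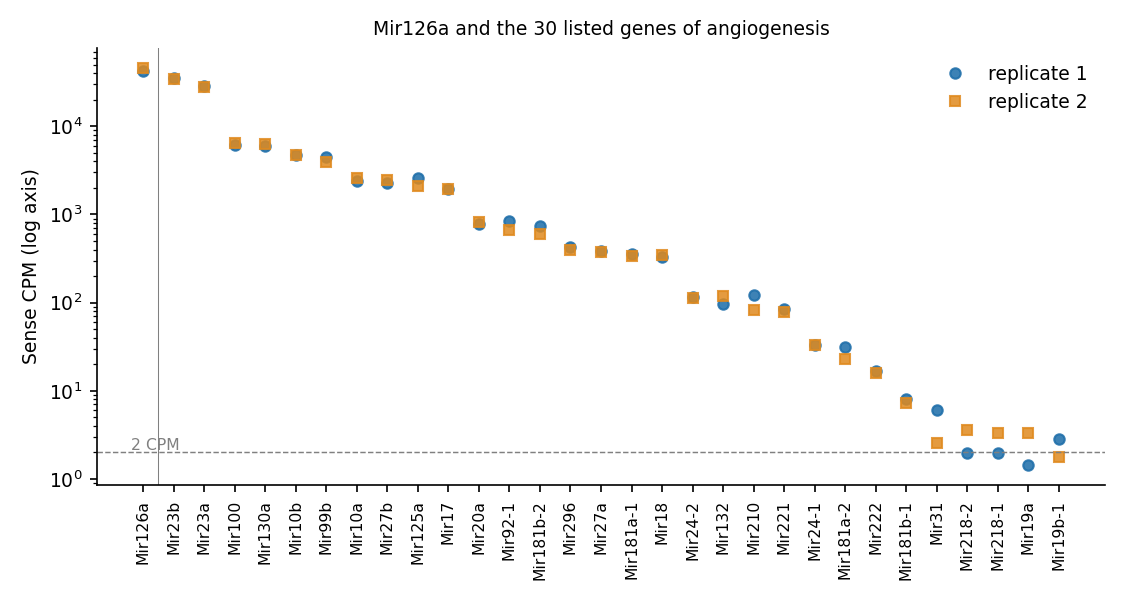
Sense CPM on a log axis for Mir126a and the 30 listed genes of angiogenesis, in replicates 1 (circles) and 2 (squares); the dashed line marks 2 CPM. In reads placed at a single site, Mir126a, at 42036 and 46314 CPM, stands above all 30, of which Mir23b comes closest with 35013 and 34824 CPM.

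Of the listed markers of muscle fibres and of other cell types, Mir206 alone exceeded Mir126a in reads placed at a single site. Reads that aligned to several places were counted on no gene. Genes with numbered copies, such as Mir1a-1 and Mir1a-2 or Mir133a-1 and Mir133a-2, may thus be undercounted. Their values are not levels of the mature miRNA. Of all 2202 annotated miRNA genes, 332 were detected and 1511 had 0 reads in both libraries. Skeletal muscle miRNAs had 6 of 7 genes detected, with Mir206 at 105606 ± 14626 CPM and a list median of 30.8 CPM. Next after Mir206 came Mir499 (340 ± 5.66 CPM) and Mir1a-2 (77.4 ± 14.0 CPM), and Mir133b, Mir133a-1, Mir1a-1 and Mir133a-2 lay between 1.04 and 30.8 CPM. Smooth muscle miRNAs had 2 of 2 detected, Mir143 at 25998 ± 4515 CPM and Mir145a at 688 ± 18.8 CPM. Blood is another known source of miR-126. Leukocyte and platelet miRNAs had 4 of 4 detected, between 107 and 279 CPM, led by Mir150, with the myeloid and platelet miRNA Mir223 at 107 ± 30.3 CPM. The erythroid miRNAs Mir451a (1811 ± 141 CPM) and Mir144 (545 and 607 reads) were both detected. Mesenchymal miRNAs had 3 of 4 detected, up to 3341 CPM for Mir214, and epithelial miRNAs 4 of 6, up to 13.0 CPM for Mir205. Neural and glial miRNAs had 1 of 7 detected, Mir338 at 305 ± 87.6 CPM, with 4 at 0 reads. Those 4, Mir124a-1, Mir124a-2, Mir124a-3 and Mir9-2, are numbered copies, so 0 reads does not show that the miRNA was absent. The part of blood cells in the level of Mir126a was not tested.

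Between the 2 libraries Mir126a was close. Its log2 ratio of replicate 1 over replicate 2 was -0.14, a fold of 0.908 with a counting interval of 0.901 to 0.914. The difference passed a two-sided exact binomial test of these libraries (adjusted p = 9.68e-168, Benjamini-Hochberg over 395 genes), as did 41.3% of the genes tested. It did not reach the 2-fold limit that 28 of 395 genes (7.09%) passed. The test sets 2 libraries against counting error alone, with no replicate behind either. Of the 332 detected genes, 208 (62.7%) differed by more, and the coefficient of variation of Mir126a was 6.85%, against a median of 10.2% over them.

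The direction of that small difference depended on what the counts were divided by. Per 1000000 reads of the whole file, Mir126a stood at 18104 in replicate 1 and 17976 in replicate 2, a log2 ratio of 0.010 that did not pass the exact binomial test (adjusted p = 0.0863). This scaling raised the log2 ratio of every gene by 0.15, and the multiply aligned share differed between the libraries as given above. Among 79 genes of at least 1000 CPM, those with the log2 ratio closest to Mir126a over the 2 libraries were Mir532 (-0.14), Mir329 (-0.15) and Mir10a (-0.15).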

How the data were processed

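The authors deposited raw read counts per miRNA gene, unstranded, sense and antisense, with 4 summary rows. Per the text file deposited with each sample, the build was mm10 and the annotation GENCODE M21. No label or header used here names the aligner, its version, trimming or counting rule (not given in the sources used here). The strand of each column was read from the totals. All 2202 gene identifiers matched GENCODE M21. Summary rows stayed out of totals. Of 8152102 reads in replicate 1 and 10176117 in replicate 2, multiply aligned reads made up 42.6% and 46.4%, unaligned reads 11.8% and 12.3%, and reads outside miRNA genes 2.55% and 2.52%.

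Detection required 2 CPM in each library. Opposite-strand genes share at least 1 base. The libraries were compared by an exact conditional binomial test given sense totals, adjusted over genes with at least 10 reads in all, with 0.5 added to each count for log2 ratios. Counts of 163 of 395 genes differed by more than sampling noise, which repeat libraries of the same RNA could also show. Neighbours of Mir126a are the 2 genes above and below it in mean CPM. List genes named are up to the leading 3 of a list and, for angiogenesis, those of at least 1000 CPM. Mir221, Mir222, Mir223, Mir24-1 and Mir24-2 were named after their values were seen. The members and lists were chosen with earlier results of these data known. Tools were Python 3.11.15, SciPy 1.17.1, RNAfold 2.7.2 and, for TMM factors, edgeR 4.0.16.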

Additional observations from a re-analysis of the deposited data

How the results depend on the processing

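With unstranded counts the level of Mir126a was 1.42 CPM, and with all reads of the file as the total it was 18040 reads per 1000000, because that total is larger. With that total its log2 ratio of replicate 1 over replicate 2 was 0.010, against -0.14 with sense totals. The ratio stayed under 2-fold with TMM factors (-0.13), median-of-ratios factors (-0.19) and no minimum count (-0.14). The bound on Mir126a over Mir126b ran from 49195 to 60976 when each replicate was left out, an alternative chosen after seeing the data. The number of genes at least 2-fold higher with strand was 28 and ran from 23 to 34 over other limits on low counts. Mir126b stayed at 0 under each alternative run, but these rescaled a count of 0, left out a library or counted without strand, so none could raise it. No paired analysis was possible because both samples belong to 1 group. Depth limits Mir126b to under 0.854 and 0.760 CPM in replicates 1 and 2.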

Other observations

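In 4 of the 24 opposite-strand pairs with a detected higher gene, both strands reached 2 CPM in both libraries, unlike Mir126a and Mir126b. They were named after their values were seen. Mir3544 had 145 and 112 sense reads opposite Mir337, and Mir3071 had 31 and 21 opposite Mir136, which had 1137 and 1333. Mir3107 had 30 and 30 opposite Mir486, which had 666 and 930. Mir3074-1 had 47 and 26 opposite Mir24-1, which had 116 and 132, so that its count was 40.5% and 19.7% of that of Mir24-1. In all 4 pairs only reads placed at a single site were counted. Mir24-1 and Mir3074-1 have numbered copies, Mir24-2 and Mir3074-2, and reads that aligned to both copies were counted on neither. The 40.5% and 19.7% are thus shares of counted reads only. In each pair, Mir486 with Mir3107 included, a read that fits both strands equally well would also be counted on neither gene. Sequence shared between the strands of these pairs was not examined, so their counts are not levels of the mature miRNAs. The ratio of the mature products of the strands was not tested. Apart from the 4 and 2 reads of Mir337, both genes of each of the 4 pairs had 0 unstranded reads in both libraries.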
